A study of Mus musculus with 2 samples.

Results

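The genes described here carry, store or buffer zinc, copper and iron in fallopian tube (oviduct) epithelial organoids. They were chosen by symbol, as every row of the Slc30a, Slc39a, Slc31a, Slc11a and Slc40a families together with Mt1, Mt2, Tfrc, Fth1, Ftl1, Atp7a, Atp7b, Trf and Heph. The rule found 38 of 25668 genes, of which 26 were grouped with zinc, 4 with copper and 8 with iron. Mouse organoids were sequenced as 1 Trp53 KO library and 1 WT library. The WT organoids came from a mouse with a Gt(ROSA)26Sor transgene that makes Cas9 and EGFP from the broadly active CAG promoter, and the KO organoids were made by knocking out Trp53, the gene of the tumour suppressor p53. Both libraries carry the treatment label conditioned medium, and the labels give neither the age of the mice nor the number of clones or animals behind each library.

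Zinc enters the cytosol through the ZIP transporters of the Slc39a family and leaves it, for the outside or for vesicles and the Golgi, through the ZnT transporters of the Slc30a family. Free zinc in the cytosol is bound by metallothioneins, small cysteine-rich proteins. Of their genes, Mt1 and Mt2 are switched on by the zinc-sensing transcription factor Mtf1. Copper is imported by Slc31a1 and pumped into the secretory pathway or out of the cell by Atp7a and Atp7b. Iron bound to transferrin (Trf) is taken up through the transferrin receptor (Tfrc), stored in ferritin, a shell of heavy (Fth1) and light (Ftl1) chains, and exported by ferroportin (Slc40a1). When iron is scarce, iron regulatory proteins bind hairpins named iron-responsive elements, which blocks translation where the hairpin lies before the coding sequence and protects the RNA where hairpins lie after it.

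Tfrc, the metallothioneins, ferroportin and the ferritin chains are the genes on which the results turn, and the hairpins of the iron genes are shown first. Untranslated regions were searched for a bulged C, a 5-base stem and a loop reading CAGAGN or CAGTGN. At least 4 of 5 bases had also to pair in a lower stem beyond the bulged C. The search found 5 hairpins after the Tfrc coding sequence. It found 1 before the coding sequence of each of Slc40a1, Fth1 and Ftl1. It returned none for Slc11a2, and a hairpin that departs from this pattern would be missed. Of all protein-coding genes searched, 0.0383% held such a hairpin in the 5′ untranslated region and 0.106% in the 3′ untranslated region. The hairpins are 27 bases long, in GENCODE M21 transcripts of build GRCm38, with the loop in capitals.
Tfrc, chr16:32631161-32631187, plus strand: tttatcagtgaCAGAGTtcactataaa
Tfrc, chr16:32631220-32631246, plus strand: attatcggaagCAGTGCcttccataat
Tfrc, chr16:32631599-32631625, plus strand: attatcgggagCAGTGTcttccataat
Tfrc, chr16:32631664-32631690, plus strand: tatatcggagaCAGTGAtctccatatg
Tfrc, chr16:32631711-32631737, plus strand: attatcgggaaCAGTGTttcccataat
Slc40a1, chr1:45925466-45925492, minus strand: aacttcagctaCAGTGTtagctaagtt
Fth1, chr19:9982733-9982759, plus strand: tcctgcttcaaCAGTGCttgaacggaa
Ftl1, chr7:45459780-45459806, minus strand: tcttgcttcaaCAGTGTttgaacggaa

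Mt1 and Mt2 are neighbours on chromosome 8, and their RefSeq promoters on build GRCm38.p6, from 250 bases before to 30 bases after the annotated start, are shown because both genes were higher in Trp53 KO organoids. Capitals mark the metal response element core, TGCACNC or TGCGCNC on either strand, the motif that Mtf1 binds. The Mt1 window holds 3 matches and the Mt2 window holds 4, and in each at least 1 match lies after the annotated start. Of 37 windows of the metal genes 18 held a match. Those of Slc30a4 and Slc30a10 also held 3, and that of Slc30a1 held 1. Of 32851 promoter windows of the same length, 24.1% held at least 1 match, 1.73% at least 3 and 0.405% at least 4. A match is a description of the letters in the window, not a site shown to be used in these cells.
Mt1, chr8:94178839-94179118, plus strand: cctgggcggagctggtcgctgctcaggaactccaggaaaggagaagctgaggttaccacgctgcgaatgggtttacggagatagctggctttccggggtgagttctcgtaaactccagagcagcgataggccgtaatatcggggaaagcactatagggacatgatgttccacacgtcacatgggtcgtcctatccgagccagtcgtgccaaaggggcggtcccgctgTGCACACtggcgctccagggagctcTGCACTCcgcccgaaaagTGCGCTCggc
Mt2, chr8:94172368-94172647, plus strand: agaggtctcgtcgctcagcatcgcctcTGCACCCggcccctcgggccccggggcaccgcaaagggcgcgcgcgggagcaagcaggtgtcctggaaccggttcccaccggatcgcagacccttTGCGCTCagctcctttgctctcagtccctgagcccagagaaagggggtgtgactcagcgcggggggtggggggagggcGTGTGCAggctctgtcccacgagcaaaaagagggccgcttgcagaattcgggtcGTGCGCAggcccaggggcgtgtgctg

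Values are TPM, the authors' length-scaled abundance, and each library holds one value per gene, so no difference below has a replicate check and no test between genotypes was possible. Reads recovered from the TPM values (with estimates for the genes not recovered) summed to 29624484 in the KO library and 107166104 in the WT library. Trp53, the targeted gene, was 2.42 TPM in the KO library and 83.2 TPM in the WT library. Differences are log2(TPM + 1) in KO minus WT, and a gene is called higher or lower at 2-fold on that scale if its mean TPM is at least 1. Over the 11228 genes that pass, 937 were higher and 1715 lower and the median difference was −0.17. Rescaling by the median ratio moved that median to −0.01, with 1191 higher and 1461 lower genes, and quantile normalization moved it to 0.03, with 1292 higher and 1321 lower genes. Ratios of TPM carry an exact Clopper-Pearson interval at 95% that covers counting error only.

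The epithelial markers were present in both libraries, with Epcam at 697 TPM in KO and 713 TPM in WT organoids, and cell-state markers differed widely. All 5 basal and squamous markers were higher in KO organoids, with a summed level of 3005 TPM against 4.70 TPM in WT organoids. Krt5, Krt14, Trp63 and Krt6a were under 1 TPM in WT organoids and passed the filter only through the KO library. Of 6 multiciliated markers 5 were lower and 3 were listed at 0 in KO organoids. The list summed to 53.3 TPM in KO and 201 TPM in WT organoids. Foxj1 alone made up 52.7 TPM of the KO sum and 116 TPM of the WT sum. Of 4 secretory markers 3 were lower, with sums of 76.6 TPM in KO and 174 TPM in WT organoids. Of 6 leukocyte markers 2 were lower, with sums of 16.4 TPM in KO and 291 TPM in WT organoids, of which Lyz2 made up 0 TPM in KO and 257 TPM in WT organoids, while Ptprc stood at 0.0110 TPM in KO and 0.0886 TPM in WT organoids. The 5 fibroblast markers summed to 0 TPM in KO and 0.0530 TPM in WT organoids, the 3 endothelial markers to 0.0269 TPM in KO and 0.0829 TPM in WT organoids, and the 4 erythroid markers to 0 TPM in KO and 0.132 TPM in WT organoids. Ccno, Tppp3, Ccdc153, Mlf1, Ovgp1, Csf1r and Lyz2 were under 1 TPM in KO organoids and passed the filter only through the WT library. For genes that passed through 1 library the direction was built in, so the marker counts are given as a description. Over all genes that pass, 8.35% were higher and 15.3% lower. The part of these cell states in the metal genes below was not tested, and in a bulk library fewer cells of a type and less RNA per cell cannot be told apart.

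Of the 38 genes 29 passed the mean of 1 TPM. The 4 genes that were higher in KO organoids were Mt1, Mt2, Tfrc and Slc30a4, and 10 were lower. These are 4 of 29 against 8.35% of all genes that pass, and 10 of 29 against 15.3%. The 29 had a median difference of −0.64. The counting interval of the TPM ratio lay wholly above 2 for the same 4 genes, and wholly below 0.5 for the same 10 and for Atp7a. Over all genes with an interval, 8.37% lay wholly above 2 and 15.5% wholly below 0.5. For 28 of the 29 the interval excluded a ratio of 1, with Slc39a3 the exception. The matching share over all genes is not given here, so this count is not read as a trait of the metal genes. At this depth a counting interval can exclude 1 for a small difference, as for Slc11a2 at a ratio of 0.94. Atp7a, Atp7b and Trf were under 1 TPM in the KO library and passed only through the WT library, so a fall in them was built into the filter, and the counts are given as a description.

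**Figure D1:**
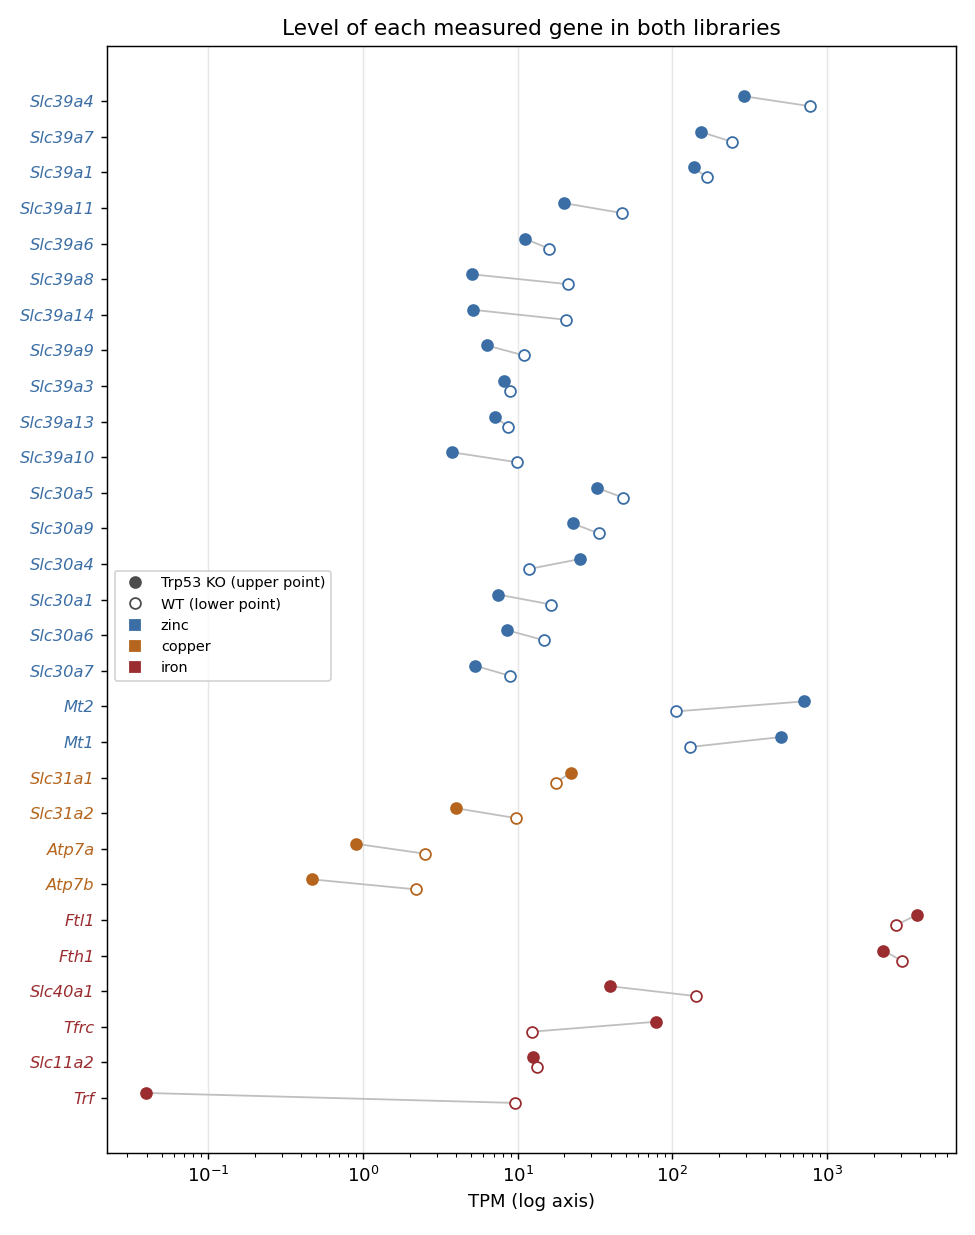
TPM of the 29 measured genes on a log axis, with filled points for the Trp53 KO library and open points for the WT library, coloured by metal. The metallothioneins and Tfrc lie to the right in KO organoids, while every measured Slc39a gene lies to the left in TPM as deposited, and the range runs from 0.0395 TPM for Trf in KO organoids to 3815 TPM for Ftl1 in KO organoids.

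The other 9 genes were near or at 0 in both libraries, with no value above 0.144 TPM. Slc30a3, Slc30a8 and Slc39a12 were listed at 0 in both. These are zinc transporters known from neurons (Slc30a3), from the insulin granules of the pancreas (Slc30a8) and from brain (Slc39a12). A floor of 3 reads allows Slc30a8 up to 0.0860 TPM in KO and 0.0256 TPM in WT organoids. Slc39a2 had 0.0484 TPM in KO and 0.144 TPM in WT organoids, the highest level of the group. Slc30a2, the exporter of zinc into milk, was 0.0634 TPM in KO organoids and listed at 0 in WT organoids. Slc39a5 had 1 read in the KO library and none in the WT library. Slc30a10, a manganese exporter in spite of its family name, had the same. Among the iron genes, Slc11a1, the metal pump of phagocyte lysosomes, stood at 0.0243 TPM in KO and 0.0145 TPM in WT organoids. Heph, the copper-dependent ferroxidase that works with ferroportin in the gut, was listed at 0 in KO organoids and at 0.0140 TPM in WT organoids. These levels rest on at most 20 reads in a library, and no direction is read from them.

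Mt1 and Mt2 were several-fold higher in Trp53 KO organoids, while Mt3, a metallothionein outside the 38 genes, was lower. Mt3 was listed at 0 in KO organoids and passed the filter only through the WT library, so its fall was built in. Of 11 measured ZIP importers 5 were at least 2-fold lower and 0 higher, and of 6 measured ZnT transporters 1 was lower and 1 higher. The 19 measured zinc genes included 3 that were higher and 6 that were lower, and their median difference was −0.64. Over all genes that pass, 8.35% were higher and 15.3% lower.

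Mt2 was 711 TPM in KO organoids and 106 TPM in WT organoids. Its ratio of 6.69 had a counting interval of 6.43 to 6.96, from 7398 reads in the KO library and 3723 in the WT library. Mt1 was 508 TPM in KO organoids and 131 TPM in WT organoids, a ratio of 3.89 with an interval of 3.78 to 3.995. Mt2 was therefore the less abundant of the pair in WT organoids and the more abundant in KO organoids, and the Mt1 to Mt2 ratio was 0.714 in KO and 1.23 in WT organoids. Together they summed to 1219 TPM in KO and 237 TPM in WT organoids, 5.14 times as much. The other metallothioneins lie in the same cluster on chromosome 8. Mt3, the form best known from brain, was listed at 0 in KO organoids and at 11.9 TPM in WT organoids, at least 37.2-fold lower against a floor of 3 reads in the KO library. The counting interval begins lower, at 30.1-fold. Mt4, the form of stratified squamous epithelium, had 1 read in the KO library and none in the WT library. Mtf1, the zinc-sensing activator of Mt1 and Mt2, lies on chromosome 4 and was 5.36 TPM in KO and 3.20 TPM in WT organoids, within 2-fold.

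Among the importers, 3 genes made up most of the ZIP RNA, with 89.7% of the family's TPM in KO and 89.2% in WT organoids. Slc39a4, the zinc importer of the intestinal surface that is mutated in acrodermatitis enteropathica, was 291 TPM in KO organoids and 780.2 TPM in WT organoids. It was 2.68-fold lower, with an interval of 2.63 to 2.73, and its share of the family sum was 45.0% in KO and 58.5% in WT organoids. Slc39a7, which releases zinc from the endoplasmic reticulum and Golgi, was 153 TPM in KO and 243 TPM in WT organoids. Slc39a1, a widely expressed plasma membrane importer, was 137 TPM in KO and 167 TPM in WT organoids. Neither of the last pair reached 2-fold. The family sum was 648 TPM in KO and 1334 TPM in WT organoids.

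Among measured ZIPs, the largest relative differences were in the ZIPs that also carry iron and manganese. Slc39a8 was 5.03 TPM in KO and 21.3 TPM in WT organoids, 4.23-fold lower with an interval of 3.80 to 4.72. Slc39a14, which carries iron not bound to transferrin into liver cells, was 5.17 TPM in KO and 20.6 TPM in WT organoids, 3.99-fold lower with an interval of 3.65 to 4.38. This pair thus stood at similar levels in each library. Slc39a10, a plasma membrane importer, was 3.75 TPM in KO and 9.86 TPM in WT organoids, and its difference of −1.19 was −0.92 with quantile normalization and −0.76 with a pseudocount of 5, within 2-fold. Slc39a11 was 19.8 TPM in KO and 47.1 TPM in WT organoids. Slc39a8, Slc39a14, Slc39a10, Slc39a11 and Slc39a4 are the 5 ZIPs that were at least 2-fold lower.

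The remaining measured ZIPs stayed within 2-fold. Slc39a6, a relative of Slc39a10 that works with it, was 11.1 TPM in KO and 15.9 TPM in WT organoids. Slc39a9 was 6.32 TPM in KO and 10.97 TPM in WT organoids, and Slc39a13, a vesicular transporter needed in connective tissue, was 7.10 TPM in KO and 8.66 TPM in WT organoids. Slc39a3 was 8.14 TPM in KO and 8.91 TPM in WT organoids. The 11 measured ZIPs were all below 0, with a median difference of −0.71, while 60.1% of all measured genes were below 0. With the median-ratio scaling 10 of 11 were below 0 (Slc39a3 at 0.04) and with quantile normalization 9 of 11 (Slc39a3 at 0.13 and Slc39a13 at 0.01). The share of 60.1% belongs to the values as deposited. The all-gene median was −0.01 with the median-ratio scaling and 0.03 with quantile normalization. Exons of Slc39a9 and Slc39a13 overlap the abundant genes Erh and Psmc3 on the opposite strand, and the strand setting of the counting is not given, so these values are uncertain. The same holds for Mt2, Slc30a1, Slc30a4 and Slc30a7, whose exons overlap predicted or unnamed genes on the opposite strand, and for Slc39a7 and Trf, which overlap a predicted gene on their own strand.

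Of the 6 measured ZnT transporters 1 was higher and 1 lower, against 8.35% and 15.3% of all genes. Slc30a1, the plasma membrane exporter that is itself a target of Mtf1, was 7.49 TPM in KO organoids and 16.5 TPM in WT organoids, 2.21-fold lower with an interval of 2.04 to 2.39. Its difference of −1.05 was −0.89 with the median-ratio scaling, −0.82 with quantile normalization and −0.79 with a pseudocount of 5, all within 2-fold. Slc30a4, which loads zinc into endosomal vesicles, was 25.3 TPM in KO organoids and 11.8 TPM in WT organoids, a ratio of 2.14 with an interval of 2.03 to 2.25, and its difference of 1.04 was 0.85 with a pseudocount of 5. Slc30a4 was the only measured ZnT gene above 0, both as deposited and under each scaling tried. It lies on chromosome 2, whose measured genes had a median difference of 0.20, against −0.24 for genes outside chromosomes 2 and 4, and the part of that shift in its value was not tested.

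The other ZnTs supply zinc to compartments. Slc30a5 and Slc30a6 form a pair that loads the early secretory pathway, at 32.6 and 8.55 TPM in KO organoids and 48.2 and 14.7 TPM in WT organoids. Slc30a7, also of the Golgi, was 5.33 TPM in KO and 8.89 TPM in WT organoids. Slc30a9, of the mitochondria, was 22.7 TPM in KO and 33.4 TPM in WT organoids. These 4 ZnTs had differences from −0.72 to −0.54 and none reached 2-fold. The family summed to 102 TPM in KO and 134 TPM in WT organoids.

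**Figure D2:**
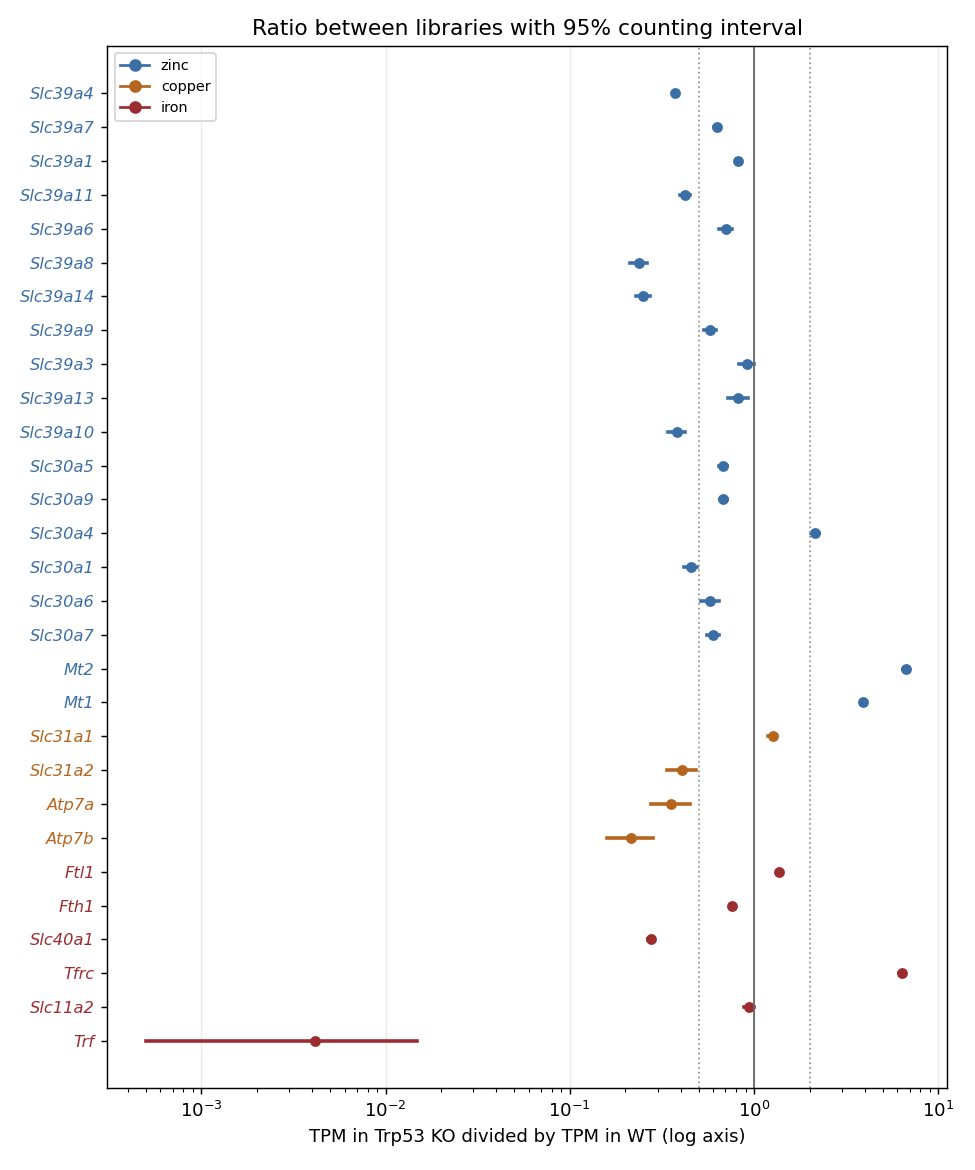
TPM in the Trp53 KO library divided by TPM in the WT library for the 29 measured genes, on a log axis, with bars for the 95% counting interval, a solid line at 1 and dotted lines at 0.5 and 2. Mt2, Mt1, Tfrc and Slc30a4 lie right of the line at 2, and the interval of Trf, from 0.000499 to 0.0149, is the widest because the KO library held 2 reads.

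Copper genes were few, and the lower calls were Slc31a2 and Atp7b. Of 4 measured copper genes none was higher and 2 were lower, against 8.35% and 15.3% of all genes, with a median difference of −1.01. Atp7a and Atp7b passed the filter only through the WT library, so a fall in them was built in. With a pseudocount of 5 and with quantile normalization 0 copper genes were lower. Over all genes that pass, 930 of 11228 and 1321 of 11237 were lower in these settings. Slc31a1, the high-affinity copper importer, was 22.2 TPM in KO organoids and 17.6 TPM in WT organoids, within 2-fold. Slc31a2, a relative that affects the copper held in vesicles, was 3.98 TPM in KO organoids and 9.81 TPM in WT organoids, 2.47-fold lower with an interval of 2.07 to 2.95. Its difference of −1.12 was −0.98 with the median-ratio scaling, −0.85 with quantile normalization and −0.72 with a pseudocount of 5, all within 2-fold. Both Slc31a genes lie on chromosome 4, where the median difference was 0.63, so the 2 differed in direction within a chromosome that stood high as a whole.

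Both copper pumps were low in either library and passed the filter only through the WT library, so their direction was built in. Atp7a, mutated in Menkes disease, was 0.898 TPM in KO and 2.53 TPM in WT organoids, from 78 reads in KO and 739 in WT. It was 2.82-fold lower in TPM with an interval of 2.23 to 3.60, while its difference of −0.89 missed 2-fold because of the pseudocount. Atp7b, mutated in Wilson disease, was 0.469 TPM in KO and 2.19 TPM in WT organoids, 4.67-fold lower with an interval of 3.54 to 6.26. Its difference of −1.12 was −0.63 with quantile normalization and −0.39 with a pseudocount of 5.

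Of 14 measured genes of zinc and copper sensing, delivery and binding 0 were higher and 1, Mt3, was lower, against 8.35% and 15.3% of all genes, with a median difference of −0.08. Mt3 passed the filter only through the WT library. Atox1, which hands copper to the pumps, was 556 TPM in KO and 582 TPM in WT organoids. Ccs, which loads copper into superoxide dismutase, was 47.3 TPM in KO and 86.3 TPM in WT organoids, and its client Sod1 was 1475 TPM in KO and 1473 TPM in WT organoids. Sco2, which delivers copper to cytochrome oxidase, was 11.6 TPM in KO and 23.1 TPM in WT organoids, a difference of −0.94. Cbwd1 was 10.4 TPM in KO and 16.4 TPM in WT organoids.

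Among iron genes Tfrc was higher and Slc40a1 and Trf were lower in Trp53 KO organoids. Of 6 measured iron genes 1 was higher and 2 lower, against 8.35% and 15.3% of all genes, with a median difference of −0.24. Trf, 1 of the 2 lower genes, passed the filter only through the WT library, so its fall was built in. Tfrc was 78.3 TPM in KO organoids and 12.3 TPM in WT organoids, a ratio of 6.36 with an interval of 6.11 to 6.61. Slc40a1, ferroportin, was 39.3 TPM in KO organoids and 143 TPM in WT organoids, 3.63-fold lower with an interval of 3.48 to 3.78. The ratio of Tfrc to Slc40a1 was 1.99 in KO and 0.0865 in WT organoids, so the receptor was the more abundant RNA in KO organoids and ferroportin in WT organoids. Slc11a2, which moves iron from endosomes and across the gut wall, was 12.6 TPM in KO and 13.4 TPM in WT organoids and stood above 0 rather than below it with the median-ratio scaling (0.08) and with quantile normalization (0.14).

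Transferrin RNA was close to the limit of detection in KO organoids. Trf was 0.0395 TPM in KO organoids and 9.58 TPM in WT organoids, from 2 reads in KO and 1633 in WT. That is 243-fold lower with an interval of 67.1 to 2005. Trf encodes the ligand of Tfrc. It passed the filter only through the WT library, so its fall was built in and is not read against the rise of Tfrc.

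Ferritin was among the most abundant RNAs in both libraries. Ftl1 was 3815 TPM in KO and 2795 TPM in WT organoids, and it ranked 40 in KO and 51 in WT among all genes. Fth1 was 2308 TPM in KO and 3036 TPM in WT organoids, and it ranked 87 in KO and 45 in WT. Neither reached 2-fold, and the sum was 6123 TPM in KO and 5831 TPM in WT organoids. The chains went in opposite directions, so the light to heavy ratio was 1.65 in KO and 0.921 in WT organoids. Ftl1 has a listed processed copy, Ftl1-ps1, at 13.6 TPM in KO and 5.41 TPM in WT organoids, with which reads can be shared. Exons of Ftl1 also overlap a predicted gene on each strand, and the one on the opposite strand was listed at 0 in both libraries. The light to heavy ratio rests on this Ftl1 value. The hairpins printed above govern translation of Fth1, Ftl1 and Slc40a1, which RNA levels do not measure.

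**Figure D3:**
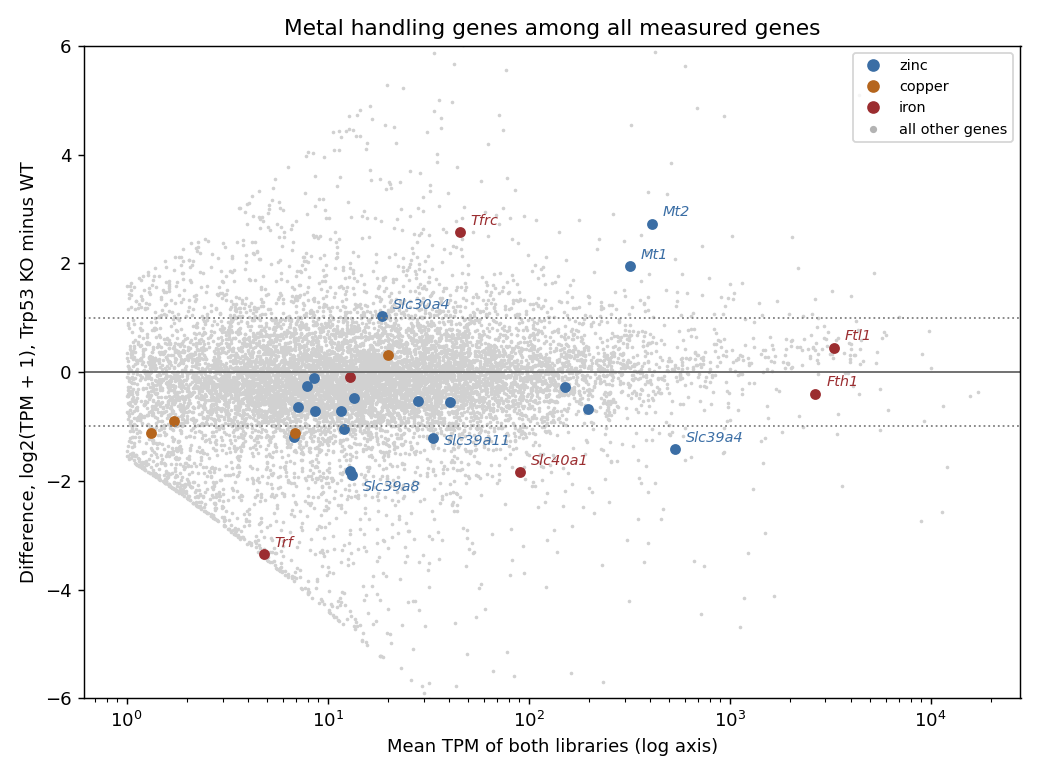
Difference in log2(TPM + 1), Trp53 KO minus WT, against mean TPM on a log axis for the 11228 measured genes, with the metal genes coloured and dotted lines at 2-fold. Mt1, Mt2 and Tfrc stand above the line for 2-fold higher, and Slc30a4 lies just above it at 1.04. Trf is the lowest of the metal genes at −3.35, with a KO value close to 0. Of all measured genes, 35 fall outside the vertical axis.

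Other genes of iron metabolism were taken from lists chosen with earlier results of these data known. Of 21 measured genes of iron regulation, reduction and ferroxidation 1 was higher and 6 lower, against 8.35% and 15.3% of all genes, with a median difference of −0.30. The lowest were secreted or surface proteins. Steap4, an iron and copper reductase, was 0.108 TPM in KO and 29.8 TPM in WT organoids. Cp, ceruloplasmin, the secreted copper ferroxidase, was 60.1 TPM in KO and 688 TPM in WT organoids, 11.4-fold lower with an interval of 11.2 to 11.7. Hpx, the plasma heme carrier hemopexin, was 0.0754 TPM in KO and 6.83 TPM in WT organoids. Lcn2, lipocalin 2, which binds iron-loaded bacterial siderophores, was 2342 TPM in KO and 15660.4 TPM in WT organoids.

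Both other lower genes were Hfe, a partner of the transferrin receptor mutated in hemochromatosis, at 0.870 TPM in KO and 3.24 TPM in WT organoids, and Meltf, a membrane-bound relative of transferrin, at 0.383 TPM in KO and 1.92 TPM in WT organoids. Hfe and Meltf were named after their values were seen. Steap4, Hpx, Hfe and Meltf were all under 1 TPM in KO organoids and passed only through the WT library. Slc25a28, a mitochondrial iron importer, was the 1 higher gene at 28.5 TPM in KO and 12.5 TPM in WT organoids. Its erythroid relative Slc25a37 was 10.9 TPM in KO and 7.02 TPM in WT organoids. The RNAs of the iron regulatory proteins differed in direction, with Aco1, on chromosome 4, at 24.5 TPM in KO and 15.7 TPM in WT organoids and Ireb2 at 13.0 TPM in KO and 18.8 TPM in WT organoids, neither 2-fold. Hmox1, which breaks down heme, was 22.3 TPM in KO and 27.8 TPM in WT organoids, and Ncoa4, which delivers ferritin for breakdown, was 24.3 TPM in KO and 38.2 TPM in WT organoids. Hamp, the hormone that removes ferroportin from the membrane, was listed at 0 in both libraries.

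Genes that use iron for heme and iron-sulfur clusters had 0 of 24 measured members higher and 3 lower, against 8.35% and 15.3% of all genes, with a median difference of −0.32. These counts do not exceed the shares over all genes. The 3 were Fech, which inserts iron into heme, at 3.67 TPM in KO and 9.87 TPM in WT organoids, the cluster scaffold Iscu at 27.1 TPM in KO and 58.1 TPM in WT organoids, and the heme enzyme Uros at 4.98 TPM in KO and 11.4 TPM in WT organoids. The highest difference was in Urod, another heme enzyme on chromosome 4, at 69.7 TPM in KO and 40.6 TPM in WT organoids.

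**Figure D4:**
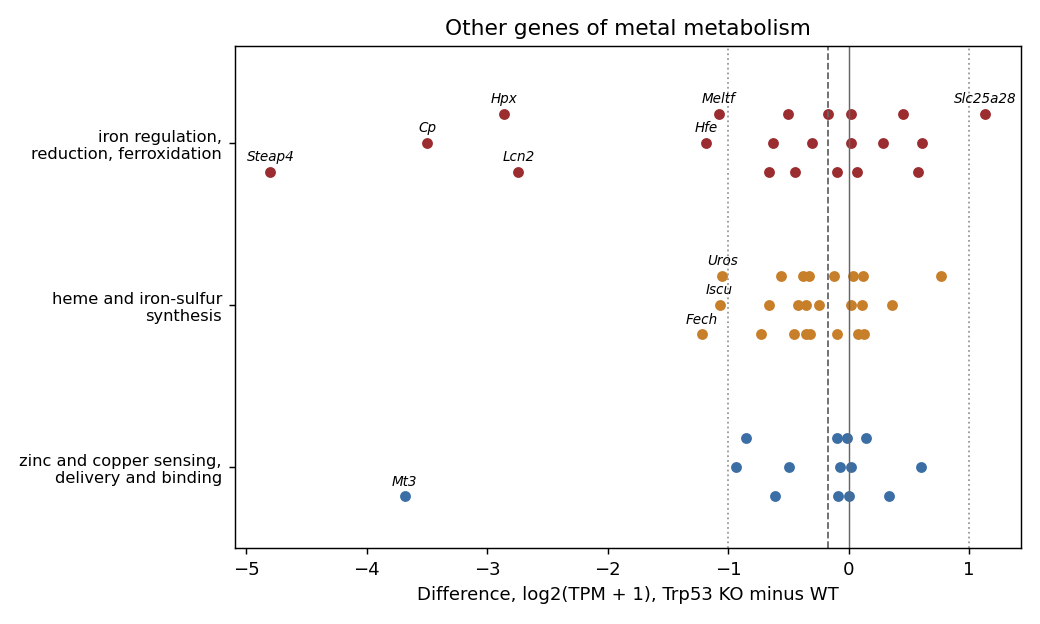
Difference in log2(TPM + 1), Trp53 KO minus WT, for the measured genes of 3 further lists, with dotted lines at 2-fold and a dashed line at the all-gene median of −0.17. Points are spread vertically for legibility only, and genes past 2-fold are named, among them Steap4 at −4.80 and Slc25a28 at 1.13.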

How the data were processed

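RNA of 1 Trp53 KO and 1 WT organoid library was made into strand-preserving NEBNext Ultra II libraries and sequenced as paired-end reads, per the labels' protocols. Reads were placed on GRCm39 (submitters' processing notes). Which aligner, counter, strand setting and annotation were used is not given in the sources used here. For each library TPM of 25668 symbols was deposited, with no counts. TPM divides reads by gene length, so reads were recovered as the whole numbers (tolerance 0.001) that give both TPM values at 1 whole-number length, between 0.5 and 1.5 times the longest protein-coding transcript of GENCODE M21, or the longest of any type where there was none. Of 9953 genes over 1 TPM in both libraries 95.0% had a solution, against 1.31% after both scales were shifted arbitrarily. All 31 metal genes above 0 in both had one. For 6 of these, 4 of them measured, several lengths fitted, and the length nearest the transcript was used. At 1000 bases 1 read was worth 0.0565 TPM in KO and 0.0168 TPM in WT organoids. Intervals and the floor of 3 reads reflect counting error alone, because each genotype had 1 library. Without molecular identifiers a read is not an independent molecule, so the intervals can be too narrow even for counting error.

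Zinc genes were the Slc30a and Slc39a families, Mt1 and Mt2. Copper genes were Slc31a, Atp7a and Atp7b, and all other genes of the rule were iron genes. From each wider list up to 4 genes with the largest differences were named, and other genes of those lists were chosen after their values were seen. The genes and lists were chosen with earlier results of these data known. Calls, recovery and intervals were checked on simulated reads drawn independently, with most gene lengths close to the annotated ones. That check does not cover dependent reads or lengths far from the annotation. Promoter windows are from RefSeq on GRCm38.p6 and hairpins from GENCODE M21. A window was available for 30 of 38 genes, and Slc39a4, Slc40a1 and Trf were among those without one. Windows and hairpins both differ from the build of the deposited values, so their coordinates belong to GRCm38. Python 3.11.15, numpy 2.4.6, pandas 2.3.3 and scipy 1.17.1 were used.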

Additional observations from a re-analysis of the deposited data

How the results depend on the processing

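The number of calls over all genes that pass also changed with the setting and is given beside each count. With a pseudocount of 5, 6 genes were lower in all, 0 of them copper genes, beside 930 of 11228 over all genes. The median difference was −0.50 for zinc and −0.37 for copper. With a pseudocount of 0.1 the copper median was −1.34. Keeping all genes without a filter gave medians of −0.38 for zinc and −0.051 for iron. With a mean TPM of at least 5, 1 copper and 1 iron gene were lower, beside 1091 of 8451 over all genes. The medians were −0.40 for copper and −0.081 for iron. The median-ratio scaling left 1 copper gene lower, beside 1461 of 11282 over all genes, with medians of −0.49 for zinc and −0.067 for iron. Quantile normalization left 6 genes lower in all and 0 copper genes, beside 1321 of 11237 over all genes. Medians were then −0.46 for zinc and −0.52 for copper. Leaving out mitochondrially encoded genes and the 100 highest genes, which include Fth1 and Ftl1, moved the iron median to −0.94. At a 4-fold threshold 2 genes were higher and 1 lower. These were 1 higher and 0 lower zinc genes, 0 lower copper genes and 1 lower iron gene. Over all 11228 genes that pass, 267 were higher and 661 lower at that threshold. Without chromosomes 2 and 4, 1 copper gene was lower, beside 1580 of 9661 over all genes. Without metallothioneins 1 zinc gene was higher, beside 935 of 11226 over all genes. Apart from the changes that follow from fewer genes, the cause was not tested. No gene past 2-fold changed sign. Mt1, Mt2, Tfrc, Slc40a1, Slc39a4, Slc39a8, Slc39a11 and Slc39a14 stayed past 2-fold in all 8 settings of scaling, filter and pseudocount, and Trf in all 7 in which it passed the filter. No paired analysis was possible because each genotype had 1 library, and no replicate could be left out. The KO library was the shallower, which widens the intervals of Trf, Atp7a and Atp7b.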
